A study of Mus musculus with 24 samples.

Results

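The genes that encode the proteins of the cytosolic ribosome were followed in the open chromatin of mouse macrophages. All mm10 RefSeq protein-coding genes whose symbol is Rpl or Rps followed by a digit, with Rplp0, Rplp1, Rplp2 and Rpsa and without the Rps6k kinases, were taken. This gave 91 of 21883 protein-coding genes. Of these, 77 encode canonical ribosomal proteins, 46 of the large and 31 of the small subunit, and 14 are paralogs, retrogenes or genes that only share the symbol, such as Rps19bp1, which encodes a protein that binds Rps19. Peaks were counted for a member where the summit had that member as its nearest protein-coding gene body, at most 50 kb away. This gave 3181 of 1274891 peaks, or 113 to 147 peaks per library, and 153 of the 80598 regions found in at least 2 libraries.

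The cells were bone marrow-derived macrophages of male C57Bl/6 mice, assayed by ATAC-seq, in which the Tn5 transposase cuts and tags accessible DNA. Diabetic mice had received streptozotocin, a toxin of the insulin-producing beta cells, and wild-type control mice are labelled as untreated, so the toxin and the diabetes cannot be told apart. Macrophages of 6 diabetic and 6 control mice were divided into an unstimulated portion and a portion given lipopolysaccharide (LPS) at 100 ng/mL with IFNγ, the type II interferon, at 10 ng/mL, which gave 4 groups of 6 libraries. The 4 groups are called unstimulated control, unstimulated diabetic, stimulated control and stimulated diabetic below. No source used here gives the ages of the mice or the duration of this stimulation, and the treatment protocol names 6 h of IL-1β, an agent that no label of a library names. Stimulated and unstimulated libraries come from the same mice, but no label says which portions belong together, so they were compared as unpaired groups.

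A ribosome needs equal numbers of nearly all of its proteins, and dividing or activated cells spend a large part of their transcription on these genes. The promoters of ribosomal protein genes have no common TATA box and fire from a C within a run of pyrimidines (C and T). The transcript then begins with a terminal oligopyrimidine (TOP) tract, through which mTORC1 and LARP1 set its translation. Many of these genes also carry small nucleolar RNAs (snoRNAs) in their introns. LPS and IFNγ together drive the inflammatory form of macrophage activation, and in human myeloid cells IFNγ also releases Rpl13a from the ribosome to block translation of some inflammatory mRNAs.

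The lists held 41385 to 61861 peaks per library, with means (± SD, 6 libraries each) of 55990 ± 3486 and 55522 ± 4925 in unstimulated control and diabetic macrophages, and 47268 ± 4535 and 53703 ± 4511 in stimulated ones. The median fold enrichment of the 22770 regions found in all 24 libraries was 9.94, 9.75, 7.88 and 8.82 in the same order. List length and fold therefore moved with the groups, and their part in the results was not tested beyond the alternatives with lists of equal length. All 10 macrophage markers had a peak at their start in each unstimulated library, and 7 to 10 of them in each stimulated one. Markers of other cells had such a peak for 1 to 2 of 7 genes (T and NK cells), 0 to 1 of 4 (B cells), 0 to 2 of 7 (neutrophils), 1 of 5 (erythroid and megakaryocytic), 0 to 2 of 5 (stromal and endothelial), 1 to 3 of 5 (dendritic) and 0 to 1 of 3 (mast cells). Cd3e, Cd79a, Ms4a1, Ly6g, Gata1 and Hbb-bt, which define T cells, B cells, neutrophils and erythroid cells, had none in any library. Other markers on these lists did have one, Cd28, Pf4 and Batf3 in 24 libraries, Cd4 and Flt3 in 23, S100a8 in 22, Col1a1 in 19, Cebpe in 15 and Kit in 11, and their part in the results was not tested.

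Stretches of 80 bases, from 60 before to 20 after the annotated start, are shown for the members the results turn on, 5′ to 3′ on the gene's strand, from RefSeq (GRCm38.p6, the assembly behind mm10). Promoter sequence was matched for 70 of the 91 members, and the other 21 have no strand here either. Capitals mark the longest run of C and T that touches the 10 bases on either side of the start. The 3 genes below had the most enriched start peaks among members with a sequence.
Rpl15, chr14:18270967-18271046, minus strand: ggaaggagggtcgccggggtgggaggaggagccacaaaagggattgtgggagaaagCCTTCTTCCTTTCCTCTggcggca
Rpl27, chr11:101442185-101442264, plus strand: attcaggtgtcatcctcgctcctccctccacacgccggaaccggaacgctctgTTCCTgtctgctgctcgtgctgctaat
Rpl37, chr15:5116553-5116632, plus strand: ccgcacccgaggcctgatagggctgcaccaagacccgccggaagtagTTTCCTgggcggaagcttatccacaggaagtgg
In Rpl15 the run spans the start over 17 bases, and in Rpl37 the letters CCGGAAG, a core recognised by ETS factors such as GABPA, stand just before the run.

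The next 3 genes had the weakest start peaks with a sequence (Rpl18 and Rpl19) and the least often found start peak of a canonical gene (Rps28).
Rpl18, chr7:45718011-45718090, plus strand: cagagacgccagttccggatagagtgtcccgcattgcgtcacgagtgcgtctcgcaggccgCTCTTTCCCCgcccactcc
Rpl19, chr11:98026864-98026943, plus strand: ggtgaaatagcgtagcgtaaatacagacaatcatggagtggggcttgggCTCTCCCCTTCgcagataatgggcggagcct
Rps28, chr17:33824543-33824622, minus strand: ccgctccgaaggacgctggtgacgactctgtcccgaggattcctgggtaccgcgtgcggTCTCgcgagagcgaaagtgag
Rps28 carries TCTCGCG, part of a palindromic promoter element, across its annotated start.

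Regions at the start of the following 10 members passed a stimulation test below. For Rpl24 this was a region just inside the gene, not the one over the printed start, which was found in 23 libraries.
Rpl14, chr9:120571457-120571536, plus strand: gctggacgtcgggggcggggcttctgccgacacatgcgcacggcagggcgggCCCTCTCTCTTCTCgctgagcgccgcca
Rpl22l1, chr3:28805448-28805527, plus strand: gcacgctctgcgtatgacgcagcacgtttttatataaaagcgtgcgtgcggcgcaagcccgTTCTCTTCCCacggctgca
Rps23, chr13:90923062-90923141, plus strand: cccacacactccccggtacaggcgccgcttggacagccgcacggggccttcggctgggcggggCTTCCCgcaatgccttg
Rpl36al, chr12:69184048-69184127, minus strand: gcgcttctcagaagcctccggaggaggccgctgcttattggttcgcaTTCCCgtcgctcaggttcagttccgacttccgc
Rpl7l1, chr17:46782637-46782716, minus strand: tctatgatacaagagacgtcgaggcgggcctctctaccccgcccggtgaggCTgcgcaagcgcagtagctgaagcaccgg
Rpl4, chr9:64173327-64173406, plus strand: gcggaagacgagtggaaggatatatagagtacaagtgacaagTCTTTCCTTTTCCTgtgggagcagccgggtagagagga
Rpl24, chr16:55966215-55966294, plus strand: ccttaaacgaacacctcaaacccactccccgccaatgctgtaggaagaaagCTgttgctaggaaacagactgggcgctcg
Rps15a, chr7:118116128-118116207, minus strand: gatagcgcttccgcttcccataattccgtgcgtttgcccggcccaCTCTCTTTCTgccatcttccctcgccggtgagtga
Rpsa, chr9:120127706-120127785, plus strand: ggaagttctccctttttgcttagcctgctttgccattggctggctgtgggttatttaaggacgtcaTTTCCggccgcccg
Rpl5, chr5:107900468-107900547, plus strand: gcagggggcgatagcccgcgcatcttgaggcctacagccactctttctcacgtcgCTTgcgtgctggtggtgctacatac
Rpl22l1 has the letters tatataaa, Rpl4 gatatata and Rpsa ttatttaa upstream of the start.

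The last 2 are paralogs without a start peak in any library, chosen after their values were seen. Rpl3l serves in skeletal and heart muscle, and Rpl10l, a retrogene of Rpl10, in the testis.
Rpl10l, chr12:66284382-66284461, minus strand: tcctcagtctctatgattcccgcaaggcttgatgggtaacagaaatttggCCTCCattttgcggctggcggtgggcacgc
Rpl3l, chr17:24727766-24727845, plus strand: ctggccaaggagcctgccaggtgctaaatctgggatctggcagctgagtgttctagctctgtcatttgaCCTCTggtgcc
The C/T run at the start is 5 bases long in both.

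The letters that canonical members share were counted in the 300 bases around each start (250 before, 50 after), for genes with at least 1 annotated start that holds them. Motifs were searched on both strands, and C/T runs on the gene's strand. A C/T run of 8 or more bases at the start was present in 47.4% of 57 canonical members, against 15.8% of 17491 protein-coding genes and 16.3% of the 8093 whose start had a peak in all 24 libraries. An annotated start at C followed by 4 pyrimidines, the TOP form, was present in 22.8%, against 2.67% of all genes. CCGGAAG was found in 42.1% of canonical members, 12.9% of all genes and 23.1% of genes always open at the start. TCTCGCG was found in 24.6% of canonical members, 3.93% of all genes and 6.96% of always open ones. The 14 members with it were Rpl7a, Rpl10a, Rpl12, Rpl26, Rpl27a, Rpl28, Rpl35, Rps2, Rps3a1, Rps6, Rps13, Rps15a, Rps19 and Rps28. AAGATGG, the core of YY1 sites, stood at 15.8% against 7.18% of all genes and 9.18% of always open ones. The E-box CACGTG, read by Myc, stood at 10.5% against 8.91% and 12.4%. The TATA box letters TATAAA were found in 10.5% of canonical members, 14.8% of all genes and 7.88% of always open ones, and the GC box GGGCGG in 61.4%, 49.2% and 73.0%. For the last 3 motifs members thus lay between all genes and always open genes. Such letters describe the sequence and do not show that a factor was bound.

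Summits lay close to the start, on its upstream side. In 56 canonical members with strand and a start peak, the median summit position was -41.25 bp from the nearest annotated start, and 73.2% of the genes had their median summit upstream. Over 10676 protein-coding genes, the median was -20.5 bp and 57.4% were upstream. The histogram of summit positions shows a single narrow mode for the ribosomal protein genes. Among those with the most distant median summits were Rps25 at -463 bp, Rpl10 at -437 bp and Rps19 at -411 bp. Rpl24, Rpl37a and Rpl38 had theirs downstream, at 470, 247 and 212.5 bp. These medians take every summit within 1 kb of the start. For Rpl24 and Rpl38 they mix separate regions, and a summit within 250 bp of the start was found in 23 and 24 libraries. The median width of a start peak, averaged over libraries, was 474 ± 49.3 bp for members and 478 ± 31.8 bp for all genes (SD, n = 24).

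**Figure D1:**
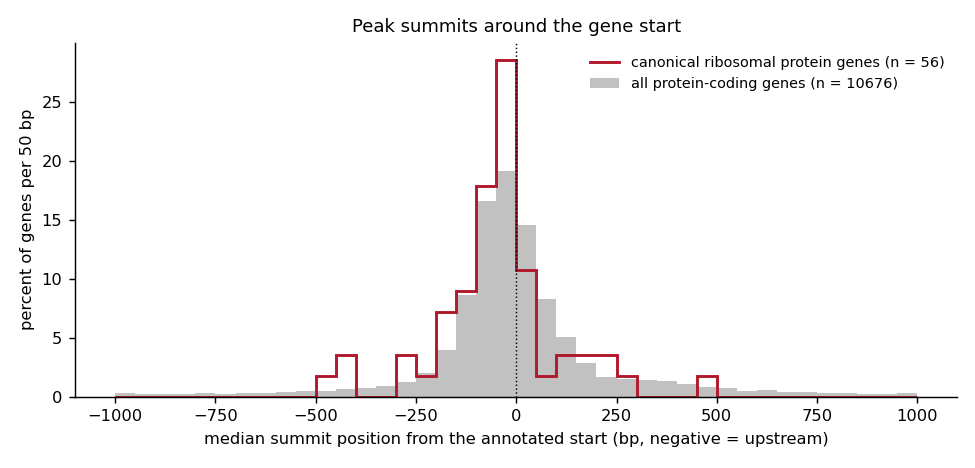
Histogram of the median peak summit position per gene relative to the annotated start (x, bp, negative is upstream; y, percent of genes per 50 bp) for 56 canonical ribosomal protein genes (line) and 10676 protein-coding genes (grey). The ribosomal protein genes peak just upstream of the start, with a median of -41.25 bp.

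Nearly every canonical gene was open at its start, and few paralogs were. A start peak, with a summit within 1 kb of an annotated start (of either gene end where no strand is given), was present in all 24 libraries at 71 of 77 canonical members (92.2%), against 9801 of 21883 protein-coding genes (44.8%). Among the 14 paralogs and other symbols it was 5 of 14, namely Rpl22l1 (paralog of Rpl22), Rpl36al (of Rpl36a), Rps27l (of Rps27, a p53 target), Rpl7l1 and Rps19bp1. Counts per library ran from 79 to 82 of 91 members, with means of 80.7 and 81.0 in unstimulated control and diabetic macrophages and 80.5 and 80.8 in stimulated ones. The 4 groups overlapped in this count.

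No start peak was found in any library at Rpl10l, Rpl31-ps12, Rpl32l, Rpl37rt, Rpl39l, Rpl3l, Rps23rg1 and Rps27rt, all paralogs or retrocopies. This says that no peak passed the authors' threshold there, not that the chromatin was closed. The canonical exception was Rpl17 (uL22, which lines the exit tunnel), whose strand is not given here, and which had a region inside its gene body in all 24 libraries, more than 1 kb from either end. Start peaks of 6 members were found in some libraries only, among them Rps28 in 19, Rpl6 and Rpl7 in 21 each, Rps9 in 22 and the pseudogene-named Rpl34-ps1 in 8. The Rpl7 region itself was found in all 24 libraries, with a summit within 1 kb of a gene end in 21. For Rps28, a protein of the head of the small subunit, they were 5, 5, 4 and 5 of 6 libraries in the 4 groups. Rpl34-ps1 had 3, 3, 1 and 1. No region at these starts was called in any comparison.

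The start of 13 of the 91 members lay in a region that the nearest-body rule gave to another gene. They included Rpl15 with Nkiras1, Rps25 with Trappc4, Rplp2 with Pidd1 and Rps27a with Clhc1. Rpl7a with Med22, Rpl9 with Lias, Rpl18 with Sphk2 and Rpl37 with Card6 were others. At 8 of these 13, Rpl7a, Rpl9 and Rpl18 among them, an annotated start of another protein-coding gene lies within 1 kb. At Rpl15, Rps25, Rplp2, Rps27a and Rpl37 none was found. Neighbours without a strand here were not searched, so a nearby start of such a gene would be missed. These start regions are described with their member below, but they are not among its 153 regions.

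Regions at the start were found in more libraries than regions farther away. Of the 82 member regions at a gene start, 65 (79.3%) were found in all 24 libraries, against 65.1% of 14034 such regions over all genes. Of the 71 farther away, 13 (18.3%) were, against 20.5% over all genes.

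To compare how open the starts were, each region found in all libraries was given its percentile of the authors' fold enrichment within its own library, from 0 to 100 over the 22770 such regions. The 76 member start regions ranged over nearly this whole scale, with a median of 51.5, and all 9138 gene-start regions had a median of 56.9. The most enriched were Rpl15 (median 99.1 over 24 libraries, range 94.3 to 99.9), Rpl27 (98.1, 79.4 to 99.9), Rps20 (97.0, 88.2 to 100.0), Rpl37 (96.5, 83.2 to 99.5) and Rps3a1 (94.3, 77.0 to 98.6). Rpl15 and Rpl27 are structural proteins of the large subunit, and Rps20 and Rps3a1 belong to the head and the platform side of the small one. Among the lowest were Rpl18 (2.01, 0.0571 to 25.8), Rpl8 (6.52, 0.145 to 39.0), Rpl19 (7.68, 1.195 to 56.6) and Rpl35 (9.13, 1.76 to 28.1). Rpl8 is the highly conserved protein next to the peptidyl transferase centre, and its peak was among the weakest. Neighbours in this order overlapped in range, as the plot of start percentiles shows.

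Start regions of small-subunit genes stood at a median percentile of 68.6 (28 genes) and those of large-subunit genes at 43.9 (43 genes). Members with a snoRNA gene in their body had a median of 57.6 (28 genes) and the others 46.8 (48 genes). Canonical members with CCGGAAG stood at 64.2 (23 genes) and those without it at 48.0 (30 genes), and members with TCTCGCG at 62.5 (13 genes) against 51.5 (40 genes). Those with AAGATGG stood at 68.0 (9 genes) against 48.2 (44 genes). A C/T run of 8 or more went with a lower median, 46.1 (26 genes) against 61.5 (27 genes), and so did the TOP form, 46.8 (13 genes) against 55.25 (40 genes). An annotated start at C went with a higher median, 67.6 (19 genes) against 48.0 (34 genes). These are descriptions across genes, which are no replicates, and carry no test.

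**Figure D2:**
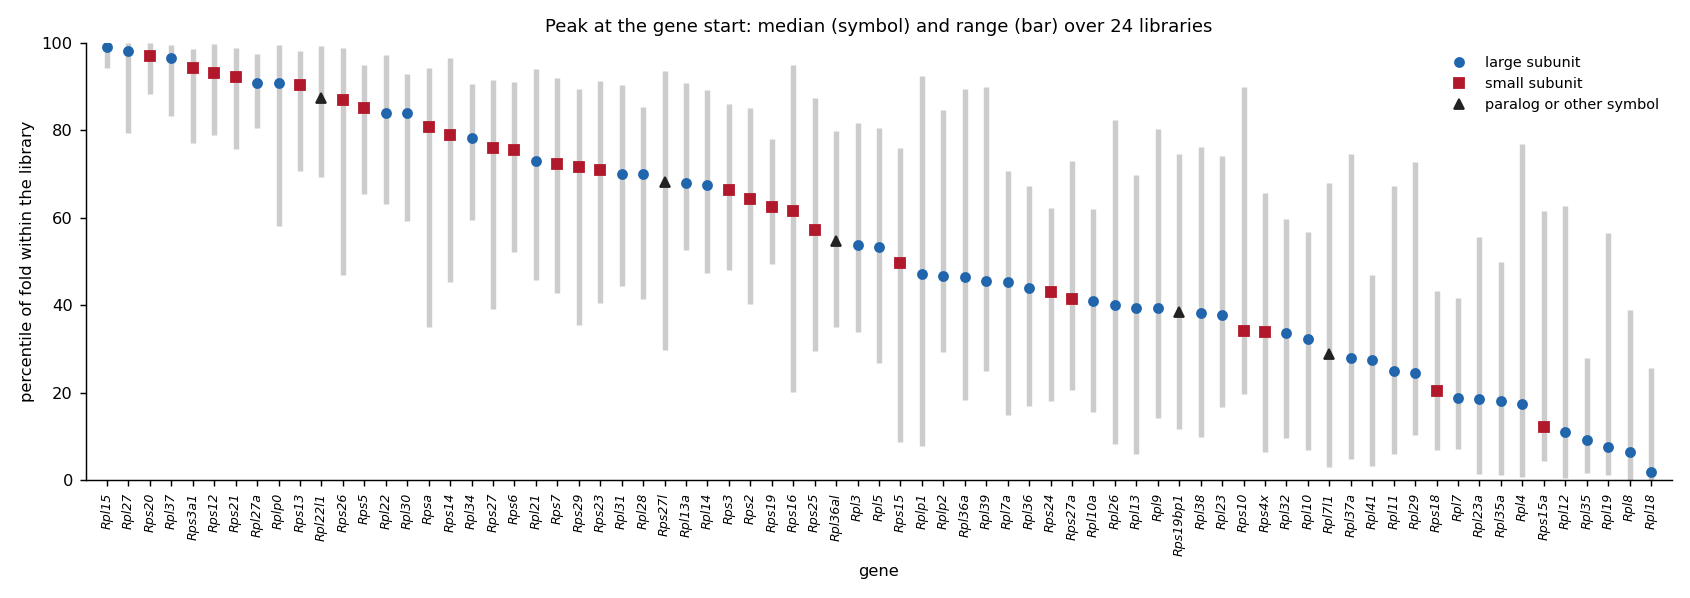
Percentile of fold enrichment within the library (y, 0 to 100) of the region at the start of 73 of the 76 members (x, ordered by median). Symbols are medians and bars the range over 24 libraries, with colour and shape for the subunit. Rpl15 is highest at 99.1 and Rpl18 lowest at 2.01.

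Among member peaks, the mean number away from starts was lowest in stimulated control macrophages. At gene starts the means (± SD, 6 libraries each) were 84.7 ± 3.08 and 85.5 ± 3.83 peaks in unstimulated control and diabetic macrophages, and 87.8 ± 4.07 and 89.0 ± 3.41 in stimulated ones. Farther away they were 48.8 ± 3.43, 48.3 ± 6.65, 38.0 ± 7.56 and 48.0 ± 4.10. Per 1000 peaks of the library, the means farther away were 0.873 ± 0.051, 0.867 ± 0.0447, 0.798 ± 0.0994 and 0.897 ± 0.0895 in the same order. The stimulated control libraries held 29 to 48 peaks away from starts and the unstimulated control libraries 45 to 54, so these groups overlapped. In all, unstimulated libraries held 131 to 138 member peaks for control (median 132) and 121 to 147 for diabetic mice (133). Stimulated ones held 113 to 141 (125.5) and 128 to 144 (137.5).

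Set against list length, members took a slightly larger share in stimulated libraries. Peaks of members per 1000 peaks were 2.39 ± 0.171 (range 2.24 to 2.68) in unstimulated control and 2.67 ± 0.142 (2.54 to 2.90) in stimulated control macrophages. They were 2.41 ± 0.0708 (2.34 to 2.55) in unstimulated diabetic and 2.57 ± 0.236 (2.36 to 2.97) in stimulated diabetic ones. All 4 ranges overlapped. The share of all peaks that lay at a gene start was also higher in stimulated control libraries, at 27.8% ± 1.90 against 23.9% ± 0.994 in unstimulated control ones. With lists cut to the same 41385 peaks, the order of control groups was the same, 2.59 against 2.82 per 1000.

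**Figure D3:**
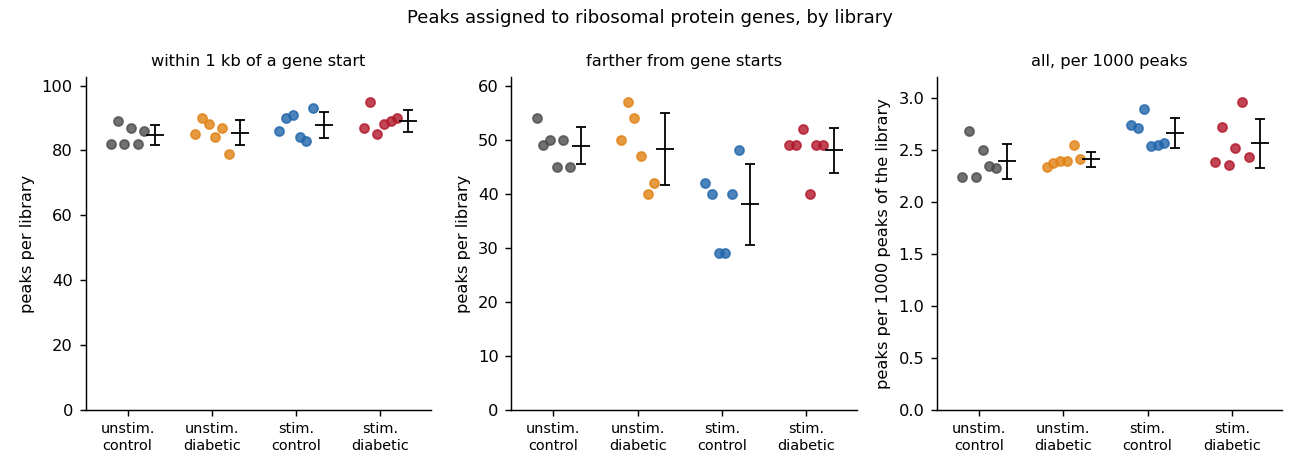
Peaks assigned to ribosomal protein genes in each library (points, 6 per group) with the mean ± SD: peaks within 1 kb of a gene start (left), peaks farther away (middle) and all per 1000 peaks of the library (right). Peaks away from starts average 38.0 in stimulated control and 48.0 to 48.8 in the other groups.

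Stimulation changed the detection of a few regions around these genes. Most starts could not be tested in this way, because their region was found in all libraries. For each region, libraries with and without a peak were counted in both states and compared by Fisher's exact test (two-sided), with Benjamini-Hochberg adjustment over all regions whose detections could reach an unadjusted p of 0.05. Pooled over phenotypes (12 against 12 libraries), 49 member regions could be tested, and 2 were found more often and 8 less often after stimulation (20.4%). Over all genes 28.1% of the tested regions passed, 9.19% higher and 18.9% lower. At gene starts 1 of 9 member regions passed and farther away 9 of 40, against 15.5% and 29.1% over all genes. That 1 region lay at an end of Rps29, whose strand is not given here, so either end counted as a start. In control macrophages alone, 1 rose and 5 fell of 17 tested, against 35.9% over all genes (8.41% higher, 27.5% lower). In diabetic macrophages alone, 0 rose and 1 fell of 15, against 8.92% (5.47% higher, 3.44% lower). Of these 12 regions near 8 genes, 11 lay away from gene starts.

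Around Rpl3, a protein at the peptidyl transferase centre, regions changed in opposite directions. The region chr15:80061124-80061538, 16413 bp from the gene body, was found in 0 of 6 unstimulated control, 1 of 6 unstimulated diabetic, 6 of 6 stimulated control and 6 of 6 stimulated diabetic libraries (pooled adjusted p = 0.000303, in control 0.0173, in diabetic 0.0559). It rose from 1 to 12 of 12 libraries, and the next gene, Syngr1, was 29966 bp away. Nearer to Rpl3, chr15:80071803-80072500 fell from 6 and 6 to 1 and 4 libraries (adjusted p = 0.0235, Fisher's exact test; 0.0606 with every region in the adjustment). chr15:80074741-80075228 fell from 6 and 6 to 3 and 3 (adjusted p = 0.0489), a call that was lost when any 1 of 15 libraries was left out (adjusted p 0.0501 to 0.0522) or lists were of equal length (adjusted p = 0.0939). The start region of Rpl3 itself was found in all 24.

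Rpl38, which in the mouse embryo is needed for translation of Hox mRNAs, also had regions of both kinds. Its region chr11:114653726-114654047, 13977 bp away, fell from 4 and 4 libraries of the unstimulated groups to 0 and 0 (adjusted p = 0.0101). Another, chr11:114662990-114663364, 4645 bp away, rose from 1 and 0 to 3 and 5 (adjusted p = 0.0437, Fisher's exact test), a call lost with every region in the adjustment (adjusted p = 0.113). The first was absent from all stimulated libraries, and the second was found in 1 of 12 unstimulated ones.

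The other regions all fell. Upstream and downstream positions are not distinguished here, because Rpl21, Rps14 and Rps29 lack a strand. Near Rpl21, chr5:146829563-146829868, 3174 bp away, went from 6 and 6 to 4 and 1 libraries (adjusted p = 0.0235, Fisher's exact test). This call was lost with lists of equal length (adjusted p = 0.357), a stricter q (0.0806) and every region in the adjustment (0.0606). A second Rpl21 region, chr5:146819146-146819651, 13465 bp away, went from 6 and 2 to 0 and 1 (adjusted p = 0.0437, in control 0.0173), lost with every region in the adjustment (adjusted p = 0.113). A region 11500 bp from Rps14, whose product lies at the platform of the small subunit, went from 5 and 6 to 0 and 2 (adjusted p = 0.00622). Near Rps10, chr17:27642452-27643054, 7342 bp away, was found in 2 unstimulated control, 6 unstimulated diabetic, 1 stimulated control and 0 stimulated diabetic libraries (pooled adjusted p = 0.0437, in diabetic 0.0243), with 0.113 and 0.167 when every region entered the adjustment. The region that lay at a gene end was chr12:69157470-69157751, 110 bp from Rps29. It was found in 4 and 3 unstimulated but 0 and 0 stimulated libraries (Fisher's exact test, adjusted p = 0.0235, and 0.0606 with every region in the adjustment). The region at the other end of Rps29 was found in all 24.

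Passing in control macrophages alone were chr1:72718831-72719237, 5179 bp from Rpl37a (5, 5, 0 and 4 libraries in the 4 groups), and chr4:136056112-136056378, 2820 bp from Rpl11 (5, 3, 0 and 2), each with adjusted p = 0.0422 by Fisher's exact test. Rpl11 is a member of the ribosomal particle that binds Mdm2. Both calls, with those at Rps14 and at 5536 bp from Rpl3, were lost in control macrophages when any 1 of 8 libraries was left out (adjusted p 0.0503 to 0.0540). Pooled calls numbered 3 higher and 3 lower with lists of equal length, and 1 higher and 2 lower when every region entered the adjustment. With lists of equal length, 3 rose and 1 fell in diabetic macrophages. The shares over all regions under these alternatives are not given here.

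**Figure D4:**
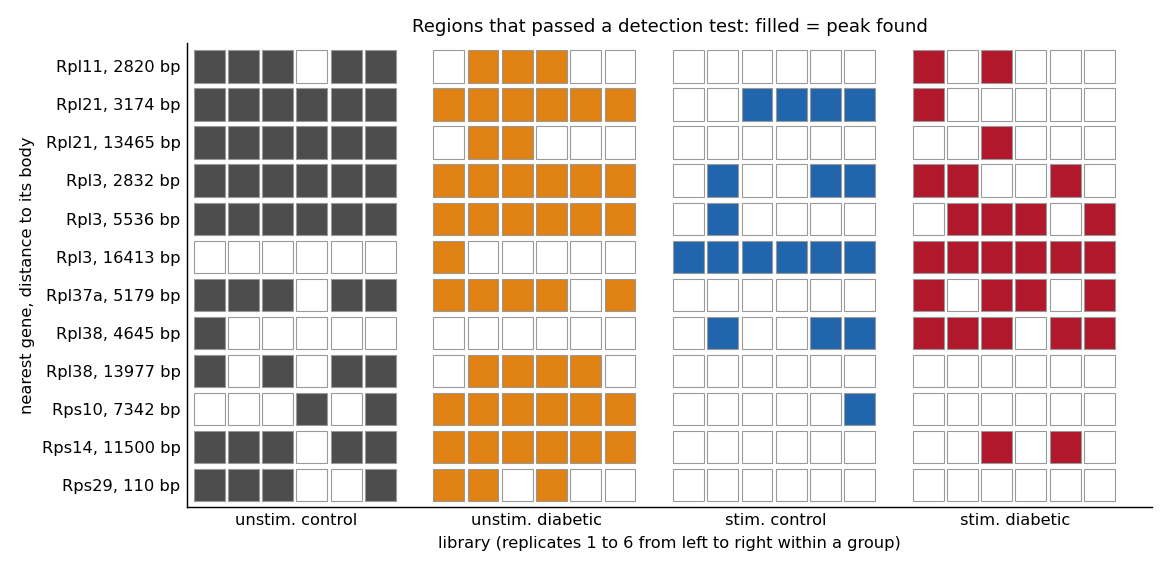
Detection of the 12 regions that passed a stimulation test (rows, nearest gene and distance to its body in bp) in each library (columns, 6 per group). A filled square is a peak. All 12 stimulated libraries hold the region 16413 bp from Rpl3, and 1 of the 12 unstimulated ones.

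No member region differed in detection between diabetic and control macrophages. None of 12 tested in unstimulated and of 15 tested in stimulated cells passed Fisher's exact test, and none had an unadjusted p under 0.05. Over all genes 0.0% passed in both. The smallest unadjusted p, 0.0801, was that of a region 14713 bp from Rplp1 in unstimulated cells and of a region 17542 bp from Rpl29 in stimulated ones. Of 17 member regions tested for an interaction of phenotype and stimulation by Zelen's exact test, 0 passed, against 0.0% over all genes, and 1 had an unadjusted p under 0.05. It was the same Rplp1 region (5, 1, 1 and 4 libraries in the 4 groups, unadjusted p = 0.0164). Rplp1 belongs to the stalk that recruits translation factors.

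Ranked by fold, starts of ribosomal protein genes moved up after stimulation about as often as other starts. With limma on the percentiles, the pooled test took the stimulation difference averaged over both phenotypes. It called 14 of 78 member regions higher and 1 lower after stimulation (19.2%), against 29.1% of all regions (14.4% higher, 14.7% lower). At gene starts 12 of 65 were higher and 0 lower (18.5%), and of all 9138 start regions 16.1% were higher and 4.98% lower. The median difference was 4.25 percentile points for member starts and 3.13 for all starts. Gene-start regions were also ranked among themselves, which takes out a shift common to all starts. There 4 member starts were higher (Rpl14, Rpl21, Rpl22l1 and Rps15a) and 2 lower, among them Rps27l. The share over all starts in that ranking is not given here. Regions at the starts of Rpl19, Rpl4, Rpl24, Rpl32, Rps23, Rpl36al and Rpl7l1 did not pass there in the pooled test (limma, adjusted p 0.0528 to 0.157). In control macrophages Rpl21, Rpl22l1 and Rpl7l1 passed there, and Rpl5 and Rpsa did not (limma, adjusted p = 0.0928 and 0.0854). Ranked among all regions, 9 of 78 member regions were higher and 1 lower in control macrophages, against 18.8% of all regions (9.45% higher, 9.34% lower). In diabetic macrophages 2 were higher and 0 lower, against 9.51% (4.46% higher, 5.05% lower). At gene starts 7 of 65 were called in control macrophages, all higher, against 14.6% of all starts, and 1 in diabetic ones, against 3.43%. Median differences at member starts were 7.43 in control and 1.14 in diabetic macrophages, and at all starts 4.58 and 1.76.

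Among large-subunit genes, Rpl21 moved most clearly at its start. Its percentiles (lowest, median, highest) were 45.7, 62.2 and 71.9 in unstimulated control and 72.6, 87.1 and 94.0 in stimulated control, with no overlap. In diabetic macrophages they were 65.3, 70.4 and 76.0 without and 65.9, 84.5 and 87.9 with stimulation. The pooled difference was 18.5 ± 3.26 (SE) points (limma, adjusted p = 0.000201), 25.2 in control (adjusted p = 0.000669) and 11.8 in diabetic macrophages (adjusted p = 0.115).

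Rpl14, a surface protein of the large subunit, rose at 3 regions. At its start the percentiles were 48.9, 67.6 and 81.2 in unstimulated control, 47.4, 56.4 and 64.5 in unstimulated diabetic, 70.0, 76.8 and 87.3 in stimulated control and 62.4, 71.6 and 89.2 in stimulated diabetic libraries. The pooled difference was 14.4 ± 3.96 (SE, adjusted p = 0.00889), and 18.3 in diabetic macrophages alone (adjusted p = 0.0396). Regions 2672 and 8113 bp away rose by 15.2 ± 4.45 (adjusted p = 0.0129) and 26.2 ± 5.42 points (adjusted p = 0.000931). The start and the region at 2672 bp were the 2 member regions called by percentile in diabetic macrophages, and each call was lost when any 1 of 7 libraries was left out (adjusted p 0.0536 to 0.0975).

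Rpl19, Rpl4, Rpl24 and Rpl32 rose from low percentiles, while the starts of Rpl18, Rpl8 and Rpl35, also among the lowest, did not pass (adjusted p = 0.227, 0.255 and 0.727). Rpl19 had percentiles of 1.55, 4.01 and 8.09 in unstimulated control, 1.195, 5.09 and 11.1 in unstimulated diabetic, 3.92, 20.5 and 42.5 in stimulated control and 2.38, 11.03 and 56.6 in stimulated diabetic libraries (pooled difference 16.3 ± 5.42, adjusted p = 0.0267). Stimulated libraries were spread widely, and some stayed within the unstimulated range. Rpl4, which reaches into the exit tunnel, had medians of 6.17 and 18.5 in unstimulated and 27.6 and 17.4 in stimulated control and diabetic libraries. Its pooled difference of 20.2 ± 7.40 (adjusted p = 0.0428) was lost when any 1 of 14 libraries was left out. Rpl24, at the subunit interface, rose by 14.1 ± 4.92 (adjusted p = 0.0339) in a region just inside the gene, a call lost when any 1 of 9 libraries was left out, and Rpl32 by 15.4 ± 4.66 (adjusted p = 0.0158).

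Among small-subunit genes, Rps23 and Rps15a rose at the start. Rps23, a protein of the decoding centre, had percentiles of 45.8, 59.4 and 71.2 in unstimulated control, 40.6, 59.1 and 76.9 in unstimulated diabetic, 72.3, 77.3 and 88.3 in stimulated control and 53.0, 74.5 and 91.3 in stimulated diabetic libraries. The pooled difference was 16.4 ± 4.87 (adjusted p = 0.0145), and control groups did not overlap. Rps15a rose by 16.98 ± 5.19 (adjusted p = 0.0168), from medians of 9.55 and 9.07 to 31.5 and 18.6 in control and diabetic libraries.

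Start regions of 3 paralogs rose as well. Rpl22l1, the paralog that takes the place of Rpl22 when that is lost, had percentiles of 69.3, 77.4 and 85.6 in unstimulated control, 82.5, 86.3 and 90.2 in unstimulated diabetic, 82.3, 90.03 and 96.7 in stimulated control and 87.5, 91.7 and 99.3 in stimulated diabetic libraries. Its pooled difference was 9.17 ± 2.30 (adjusted p = 0.00447). The start of Rpl22 itself did not pass (-6.19 ± 3.18, adjusted p = 0.147). Rpl36al, which starts next to Mgat2, rose by 11.6 ± 4.06 (adjusted p = 0.0348), a call lost when any 1 of 9 libraries was left out. Rpl7l1, a nucleolar relative of Rpl7, rose by 16.8 ± 6.00 (adjusted p = 0.0381) and was lost when any 1 of 11 libraries was left out. In Rpl7l1 the control libraries went from 3.16, 13.4 and 22.6 to 32.7, 42.3 and 62.7 with no overlap, and the diabetic libraries from 11.4, 29.8 and 43.9 to 6.60, 28.9 and 67.9.

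Passing in control macrophages alone were the starts of Rpl5 and Rpsa and a region 6938 bp from Rpl29. The region near Rpl29, a protein of the large subunit, differed by 18.5 ± 6.01 in control (adjusted p = 0.0344, lost when any 1 of 5 libraries was left out) and by 0.0392 in diabetic macrophages. Rpl5, the partner of Rpl11 in the particle that binds Mdm2, had percentiles of 29.4, 41.1 and 55.4 in unstimulated and 58.7, 68.4 and 80.6 in stimulated control libraries (difference 25.5 ± 7.37, adjusted p = 0.0186). In diabetic libraries they were 26.8, 51.4 and 75.5 without and 27.2, 47.4 and 72.8 with stimulation (difference -4.71 ± 7.37, adjusted p = 0.762). Rpsa, which also serves as a laminin receptor precursor, rose by 22.5 ± 6.93 in control (adjusted p = 0.0264, lost when any 1 of 4 libraries was left out) and differed by -2.09 ± 6.93 in diabetic macrophages (adjusted p = 0.900). The interaction of phenotype and stimulation did not pass for Rpl5 (-30.2 points, adjusted p = 0.658) or Rpsa (-24.6, adjusted p = 0.673).

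The member region that fell in percentile lay 7460 bp from Rpl37. Its percentiles were 36.2, 76.0 and 84.9 in unstimulated control, 55.6, 72.0 and 86.8 in unstimulated diabetic, 11.04, 32.99 and 82.1 in stimulated control and 18.5, 47.5 and 62.0 in stimulated diabetic libraries. The pooled difference was -30.1 ± 7.49 (adjusted p = 0.00425), -32.5 in control (adjusted p = 0.0348) and -27.8 in diabetic macrophages (adjusted p = 0.103). The start of Rpl37, by contrast, stayed among the most enriched, with medians of 95.5, 96.5, 94.7 and 98.1 in the 4 groups.

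**Figure D5:**
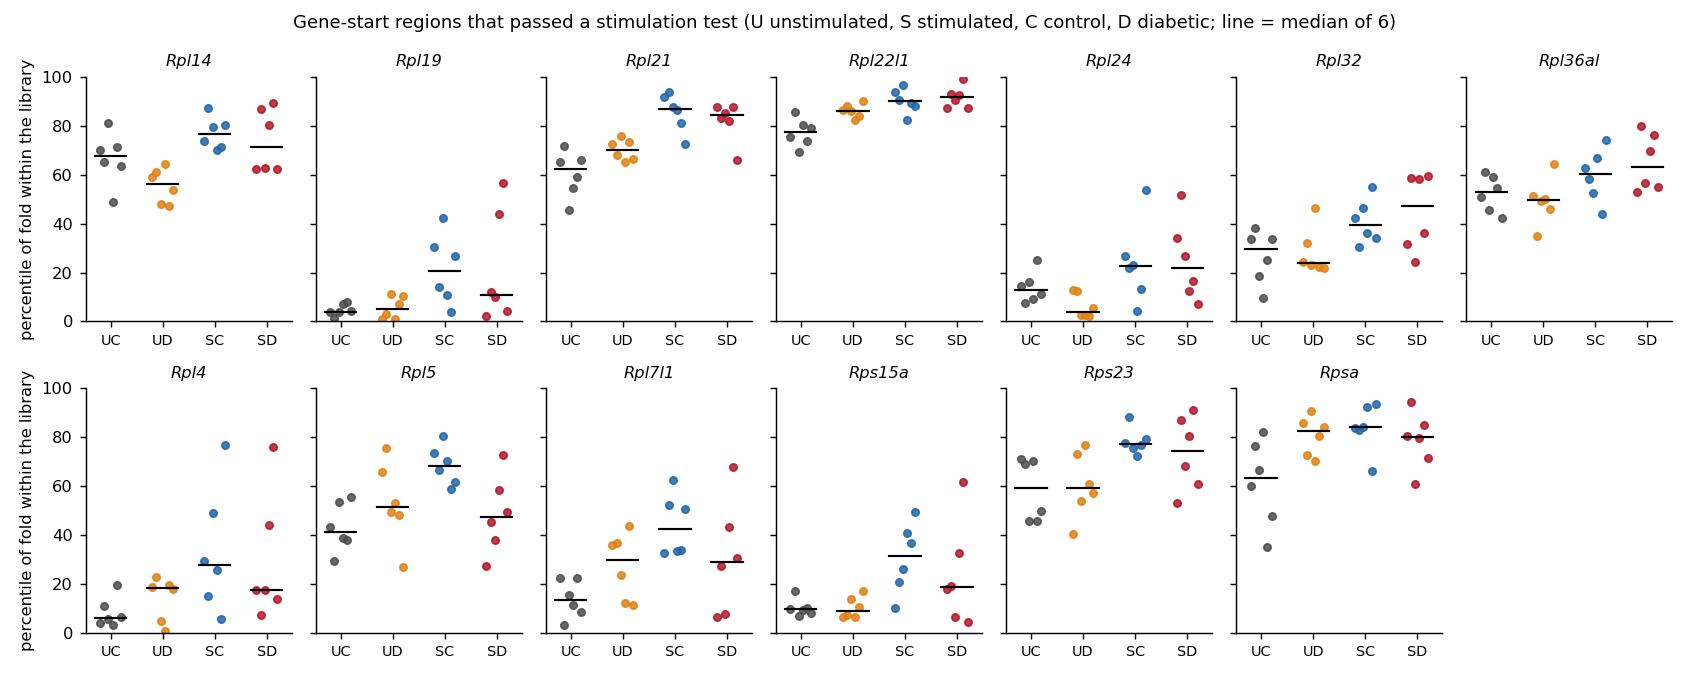
Percentile of fold within the library (y, 0 to 100) for 13 member regions at a gene start that passed a stimulation test, by group (UC and UD unstimulated, SC and SD stimulated control and diabetic). Points are libraries and lines medians of 6. For Rpl21 the stimulated control libraries (72.6 to 94.0) lie above the unstimulated ones (45.7 to 71.9).

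Some of the starts that the rule gave to a neighbour also rose. Of 13 such regions, 3 passed higher and 0 lower in the pooled test, where 16.1% of all gene-start regions were higher and 4.98% lower. In control macrophages 5 passed, all higher, against 14.6% of all starts, and in diabetic ones 1, against 3.43%. Rps25, with Trappc4, rose by 28.5 ± 4.89 points (adjusted p = 0.000147), from medians of 40.8 and 43.6 to 66.8 and 77.9 in control and diabetic libraries. It rose in control (28.3, adjusted p = 0.00652) and in diabetic macrophages (28.6, adjusted p = 0.00922). Rplp2, a stalk protein next to Pidd1, rose by 18.1 ± 4.26 (adjusted p = 0.00280), with 30.9 to 53.3 in unstimulated and 61.1 to 84.7 in stimulated control libraries, and a difference of 3.41 in diabetic macrophages (adjusted p = 0.794). Rps27a, made as a fusion with ubiquitin and next to Clhc1, rose by 19.2 ± 4.59 (adjusted p = 0.00321). Rpl9 and Rpl35a passed in control macrophages alone, by 31.3 and 19.3 points (adjusted p = 0.0349 and 0.0457). Which gene of such a pair a shared region serves cannot be told apart.

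Diabetes moved no member region past the threshold. In unstimulated macrophages 0 of 78 passed (limma, 0.0% over all regions) and 6 had an unadjusted p under 0.05. In stimulated macrophages 0 of 78 passed (over all regions 0.0439% passed, 0.0307% higher and 0.0132% lower) and 5 had an unadjusted p under 0.05. The smallest p-values were at Rpsa (19.4 ± 6.93 higher in unstimulated diabetic macrophages, adjusted p = 0.911) and at Rpl5 (-20.1 ± 7.37 in stimulated ones, adjusted p = 0.358). For the interaction 0 of 78 passed (0.0% over all regions), 4 had an unadjusted p under 0.05, and the median was -4.72 points, against -0.376 over all regions and -2.80 over all gene starts. Other members with small unadjusted p were Rpl22l1 and Rpl3 in unstimulated, Rpl37a and Rpl29 in stimulated cells, and Rpl7l1 in the interaction.

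Several members known for other roles did not pass at the start; they lie outside the naming rule and were picked with their values known. Rpl13a, the target of the IFNγ pathway named above, had a pooled difference of 0.651 ± 4.28 points (adjusted p = 0.928), and -3.79 ± 4.72 (adjusted p = 0.629) when starts were ranked among themselves. Rps6, the substrate of the S6 kinases, had 4.25 ± 4.06 (adjusted p = 0.456), and Rps3, a partner of NF-κB p65, -1.85 ± 5.22 (adjusted p = 0.824). Rplp0, often taken as a reference gene, had -0.546 ± 4.71 (adjusted p = 0.946) at a median percentile of 90.8. Rps27l, called lower when starts were ranked among themselves, had -14.9 ± 5.75 (adjusted p = 0.0539) among all regions.

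Most members had few regions, and 11 held 57 of the 153. Under the rule 16 members had none, 37 had 1, 27 had 2 or 3, and 11 had 4 or more. Rpl14 had 7, Rpl3, Rpl11 and Rpl21 had 6 each, Rpl38, Rps14, Rps29 and Rps3a1 had 5 each, and Rpl29, Rpl37a and Rplp1 had 4 each. Each of these genes had a start region in all 24 libraries, and most of their other regions were found in fewer. At Rps14, regions 7376 and 101 bp from the gene were found in all 24 libraries and others in 13, 16 and 23. At Rps3a1, whose distal region 26551 bp away had a median percentile of 88.4, the rest were found in 2, 4 and 6 libraries.

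Genes of the mitochondrial ribosome, and genes that work with the ribosomal proteins, also had an open start in nearly every case. Start peaks were found in all 24 libraries at 77 of 78 mitochondrial ribosomal protein genes, 41 of 41 translation factors, 46 of 50 ribosome biogenesis genes, 20 of 20 regulators of ribosomal protein synthesis and 14 of 15 quality control and stress genes. In the pooled detection test of stimulation, with 28.1% called over all genes, 4 regions rose and 7 fell of 51 near mitochondrial ribosomal protein genes, 5 rose and 6 fell of 33 near translation factors, and 4 rose and 12 fell of 48 near biogenesis genes. Near regulators 1 rose and 15 fell of 40, and near quality control genes 0 rose and 2 fell of 18. These shares are read as counts only.

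In the regulators, a region inside Rptor, the mTORC1 subunit that recruits substrates, fell from 12 to 1 of 12 libraries (adjusted p = 0.000303). A region inside Tbpl1, which encodes the TBP-related factor of TOP promoters, fell from 12 to 5, and a region 21575 bp from Rheb, the activator of mTORC1, from 8 to 0 (adjusted p = 0.0101). Among biogenesis genes, a region inside Wdr43 rose from 0 to 12 libraries (adjusted p = 6.17e-05), and regions near Utp15 and Polr1d fell from 11 to 0 and from 12 to 1 (adjusted p = 0.000303 each). Of the translation factors, Eif3h gained a region inside its body (0 to 11 libraries) and Pabpc1 one 38518 bp away (0 to 8), while one 15918 bp from Eif3f fell from 9 to 2. Of the mitochondrial genes, Mrpl1 lost a region inside its body (12 to 0 libraries), Mrpl39 gained one 37390 bp away (0 to 12), and Mrpl33 lost one (10 to 1). In quality control, regions inside Map3k20 (ZAKα, the sensor of stalled ribosomes) and Nemf each fell from 7 to 0 (adjusted p = 0.0235, Fisher's exact test).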

How the data were processed

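ATAC-seq of 24 libraries was read from the peak lists that the authors deposited, 1 list per library with coordinates on mm10. Per the submitters' processing notes, the tools included MACS2 2.1.1 and Bowtie2 2.2.6, with no role given; Trim Galore 1.8, FastQC 0.11.3 and DiffBind 2.4.8 are also listed. Per the labels' protocols, 50000 cells per replicate were used, with 50-bp single reads. The deposited lists give a score, a fold enrichment (ratio), −log10 p and −log10 q and a summit per peak. The smallest deposited −log10 q was 1.302. Read depth is not given in the sources used here, and no interval was made from it.

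Peaks overlapping by at least 1 bp were merged over libraries with bedtools 2.31.1, keeping those seen in 2 or more libraries. Detection was compared with Fisher's and Zelen's exact tests in scipy 1.17.1 and percentiles of the authors' fold with limma 3.58.1 (R 4.3.3). Benjamini-Hochberg adjustment at 0.05 ran over all genes' regions, not members alone. For detection it took only regions that could reach an unadjusted p of 0.05, and for percentiles all regions ranked. Fisher's test and limma were tested on simulated data. P-values measure the spread between libraries. Gene starts and sequences come from RefSeq (GRCm38.p6). The letters TCTCGCG were searched after a longer form of that element had been counted. Same-numbered libraries correlated by -0.183 to 0.0648, and 0 pairs exceeded 0.1, so the numbers were not used as pairs. No 2 libraries were identical.

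Results for some members are not reported here. Named were members with a called region, otherwise the 3 of smallest p per comparison, the 5 highest and 5 lowest starts, those without or with incomplete start peaks, those with 4 or more regions, and up to 3 genes per pathway list. Members and lists were chosen with earlier results of these data known. Alternatives were a −log10 q of at least 5, lists of equal length, joined summits, other assignment distances, canonical members alone, other rankings, every region in the adjustment, the replicate block and leaving out each library.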

Additional observations from a re-analysis of the deposited data

Results flagged for a closer look

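Among 112 groups of 6 libraries tested, 16 had 1 library far from the others, where chance gives about 1 in 20. Member peaks per 1000 stood at 2.548 in unstimulated diabetic replicate 5 (nearest 2.417), and 80 members had a start peak in stimulated diabetic replicate 4 (81 in the others). Among starts called after stimulation, Rpl21 was low in stimulated diabetic replicate 6 (percentile 65.91, nearest 82.25). Rps15a was high in unstimulated control replicate 2 (17.09, nearest 10.2). The region 6938 bp from Rpl29 was high in stimulated diabetic replicate 5 (33.53, nearest 12.12).

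The other libraries concern the highest and lowest starts. Rpl15 was low in unstimulated diabetic replicate 2 (95.73) and stimulated control replicate 6 (98.72), and Rpl27 in stimulated control replicate 3 (79.39). Rps20 was low in unstimulated control replicate 4 (91.87), unstimulated diabetic replicate 6 (88.22) and stimulated diabetic replicate 4 (89.48), and the start of Rpl37 in stimulated diabetic replicate 6 (92.6). Rpl8 was high in unstimulated control replicate 5 (26.57). Rpl18 was high in unstimulated diabetic replicate 6 (10.72), stimulated control replicate 1 (15.06) and stimulated diabetic replicate 5 (25.75).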

How the results depend on the processing

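No called region changed sign under the alternatives run, but counts shifted between directions. With lists of equal length, detection calls were 3 higher and 3 lower pooled and 3 higher and 1 lower in diabetic macrophages, and members with a start peak averaged 79.83 in stimulated against 77.33 in unstimulated control macrophages (80.5 against 80.67 otherwise). Mean member peaks per 1000 with a −log10 q of at least 5 were 2.667 (unstimulated diabetic), 2.977 (stimulated control) and 2.862 (stimulated diabetic). With lists of equal length they were 2.590 (unstimulated control), 2.654 (unstimulated diabetic) and 2.815 (stimulated control). With canonical members alone they were 2.279 (unstimulated diabetic) and 2.512 (stimulated control), and within 10 kb 2.064, 2.077, 2.393 and 2.215 in the 4 groups. Members with a start peak averaged 78.5, 78.33, 77.83 and 79.5 with the stricter q, 77.33, 77.5 and 79.5 with equal lists (all but stimulated control), and 71.5, 73.33, 72.33 and 73.17 within 250 bp of the start.

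Detection calls after stimulation (10 pooled, 6 in control, 1 in diabetic) numbered 6, 3 and 4 with equal lists, and 3, 0 and 0 with every region in the adjustment. They were 6 pooled and 3 in control within 10 kb, and 3 in control and 0 in diabetic with the stricter q. Percentile calls (15, 10 and 2) numbered 6, 3 and 0 when gene starts were ranked alone, and in diabetic macrophages 1 with the stricter q and 1 with normal scores. With the replicate block, detection calls were 8 pooled and 2 in control, and percentile calls 14 pooled, 11 in control and 1 in diabetic. Of 6 libraries, 0 (stimulation in control), 3 (stimulation in diabetic), 1 (phenotype unstimulated) and 1 (phenotype stimulated) correlated best with their own number, a hint from the data and not from the design. A block for the interaction of detection was not run. All calls in this section are counts of members, given without the share over all regions. Whether all regions shifted alike is therefore not shown. The cause of the shifts in these counts was not tested.

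Leaving out 1 library gave 2.335 to 2.423, 2.387 to 2.429, 2.623 to 2.695 and 2.486 to 2.607 member peaks per 1000 and 80.4 to 81, 80.8 to 81.2, 80.2 to 80.8 and 80.8 to 81 members with a start peak. Detection calls ran from 9 to 14 pooled, 2 to 7 in control (2 or 3 without unstimulated control replicate 1, 3, 5 or 6 or stimulated control replicate 1, 2, 3 or 4) and 1 to 2 in diabetic. Percentile calls ran from 11 to 20 pooled, 5 to 13 in control (6 without unstimulated and 5 without stimulated control replicate 6) and 0 to 3 in diabetic (0 without unstimulated diabetic replicate 5 or stimulated diabetic replicate 2, 4 or 5, and 1 without unstimulated diabetic replicate 1, 2, 3 or 4). Phenotype and interaction calls were 0 throughout.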
